A study of Mus musculus with 8 samples.

Results

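The genes described here are 40 interferon response genes of the mouse. They were chosen by symbol, with earlier results of these data known. Each of the 40 symbols was found in the deposited table of 23337 genes. By role they fall into 17 antiviral effectors, 4 sensors of foreign RNA or DNA, 8 genes of the ISG15 system and of ubiquitin and ADP-ribose transfer, 3 interferon regulatory factors, 4 guanylate-binding proteins and 4 genes of class I antigen processing. Interferons are secreted proteins that bind receptors on the cell surface. The receptors signal through JAK kinases to transcription factors that enter the nucleus and switch on genes such as these. The type I interferon response acts mainly through a promoter element named ISRE, and the interferon-gamma response through one named GAS. In bone marrow, stem and progenitor cells are known to hold part of this program at a basal level.

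Bulk RNA sequencing was done on marrow of C57BL/6 mice aged 4 months that all carried JAK2 V617F on 1 allele, the activating mutation of myeloproliferative neoplasms. The 8 libraries form 4 groups of 2: TER119-positive erythroblasts (red cell precursors) labelled JAK2V617F/+ Plek2+/+ or JAK2V617F/+ Plek2-/-, and Kit-positive cells from lineage-negative marrow, here called progenitors, with the same 2 labels. Plek2 encodes pleckstrin-2, a membrane-associated protein of red cell precursors. No group had wild-type Jak2, so the level of these genes without the mutation was not measured. The labels do not say whether libraries came from separate mice, from pools or from 1 mouse, or how the JAK2 allele was made. The p-values below therefore measure the spread between libraries, which may be technical.

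Library totals ran from 16038035 to 23521726 reads, and levels are given as CPM, reads per 1000000 of the library total multiplied by its TMM factor (trimmed mean of M values). These factors were 0.744 to 0.776 in erythroblasts and 1.29 to 1.34 in progenitors, so an erythroblast level stands higher against a progenitor level on this scale than per library total. A gene with no read could still be at up to 0.0992 to 0.233 CPM, the worth of 3 reads. The check of the targeted gene went against its label in progenitors: Plek2 had 29 and 21 reads in the Plek2+/+ libraries and 130 and 173 reads in the Plek2-/- libraries. In erythroblasts it had 1770 and 1894 reads under Plek2+/+ and 616 and 781 under Plek2-/-. All 4 Plek2+/+ libraries had the RNA pattern of females (Xist 37172 to 90268 reads) and all 4 Plek2-/- libraries that of males (Xist 46 to 65 reads), so sex and the Plek2 label cannot be told apart. Genotype groups are therefore named as libraries labelled Plek2-/- or Plek2+/+. The 12 erythroblast markers examined were each higher in erythroblast libraries and the 12 stem and progenitor markers each lower, so the cell labels matched their markers.

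Promoter sequence was at hand for 30 of the 40 genes (RefSeq, build GRCm38.p6). The letters GAAA, any 2 bases, then GAAA, which form the core of an ISRE, were found on either strand within 250 bases before a start site in 12 of these 30 genes (40%). Of all 27025 genes with such a sequence 3.46% held the same letters. The GAS core TTCNNNGAA, whose letters are the same on both strands, was found in 6 of the 30 genes (20%) against 8.13% of all genes. Matches are a description of the letters and were not tested as binding sites. The lines below give the 160 bases before the start site, 5′ to 3′ on the strand of the gene, with ISRE cores in capitals. They are shown because the first 4 are the members with a match that changed in progenitors, while Isg15 and Gbp3 were added after their values were seen, as members with opposite differences between the populations. Oas3 lies at chr5:120777660-120777819 (minus strand), Rsad2 at chr12:26456453-26456612 (minus), Ifit3 at chr19:34583369-34583528 (plus), Ifit1 at chr19:34640729-34640888 (plus), Isg15 at chr4:156200819-156200978 (minus) and the upstream start site of Gbp3 at chr3:142559884-142560043 (plus).
Oas3: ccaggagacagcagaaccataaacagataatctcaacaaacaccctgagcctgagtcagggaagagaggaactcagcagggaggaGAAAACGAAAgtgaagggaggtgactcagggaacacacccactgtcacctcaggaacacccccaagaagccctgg
Rsad2: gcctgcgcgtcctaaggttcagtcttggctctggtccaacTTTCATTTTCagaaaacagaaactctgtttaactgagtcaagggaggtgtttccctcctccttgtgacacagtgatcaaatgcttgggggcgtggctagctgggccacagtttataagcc
Ifit3: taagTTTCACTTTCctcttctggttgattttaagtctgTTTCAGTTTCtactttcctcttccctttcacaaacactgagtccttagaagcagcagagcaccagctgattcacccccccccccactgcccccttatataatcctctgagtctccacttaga
Ifit1: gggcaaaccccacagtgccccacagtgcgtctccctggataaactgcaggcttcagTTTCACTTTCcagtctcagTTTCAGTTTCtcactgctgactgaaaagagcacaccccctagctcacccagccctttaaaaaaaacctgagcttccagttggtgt
Isg15: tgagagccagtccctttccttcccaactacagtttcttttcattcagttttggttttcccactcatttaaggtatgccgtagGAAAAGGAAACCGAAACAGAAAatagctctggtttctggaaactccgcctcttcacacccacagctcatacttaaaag
Gbp3: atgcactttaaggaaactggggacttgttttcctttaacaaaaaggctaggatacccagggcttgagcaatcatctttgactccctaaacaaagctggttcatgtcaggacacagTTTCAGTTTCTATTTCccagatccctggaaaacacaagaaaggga
The Ifit1 and Ifit3 sequences each hold 2 separate cores on the minus strand, and Isg15 holds 3 overlapping cores that begin 78, 72 and 66 bases before its start site. Rsad2 and Oas3 hold 1 core each. Cores were found in 6 of 13 antiviral effectors with a sequence, 3 of 3 guanylate-binding proteins and 0 of 3 interferon regulatory factors. Of other members that changed in progenitors, Oasl2, Ifitm3, Ifih1 and Ddx58 have no such letters in this window. No sequence was at hand for Oas2, so it was not searched.

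Most of the 40 genes differed between erythroblasts and progenitors. In the Plek2+/+ libraries 25 members were higher in erythroblasts and 9 lower (edgeR quasi-likelihood test, Benjamini-Hochberg adjusted p under 0.05 over 13365 genes), and in those labelled Plek2-/- 22 were higher and 14 lower. Over all genes tested the shares were 36.0% higher and 37.8% lower in the first comparison and 37.5% and 39.2% in the second. The median log2 difference of the members was 0.67 under Plek2+/+ and 0.42 under Plek2-/-, beside -0.06 and -0.07 for all genes tested. Under both labels 22 members were called higher and 9 lower, and 1, Oas2, changed in opposite directions. The libraries did not overlap in 28 members higher and 10 lower in Plek2+/+ erythroblasts, where 42.1% and 46.9% of all genes did so. Under the Plek2-/- label this held for 20 members higher and 14 lower, beside 41.3% and 46.9% of all genes. These counts rest on scaling that centres most genes near 0. On library totals alone the median of all genes moved by -0.81 and -0.79, 13 and 12 members were called higher and 18 and 19 called lower. On that scale 8 values in each comparison changed from a called positive to a negative sign, of which 3 under Plek2+/+ (Trim25, Dtx3l and B2m) and 2 under Plek2-/- (Trim25 and Dtx3l) passed the test as lower.

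**Figure D1:**
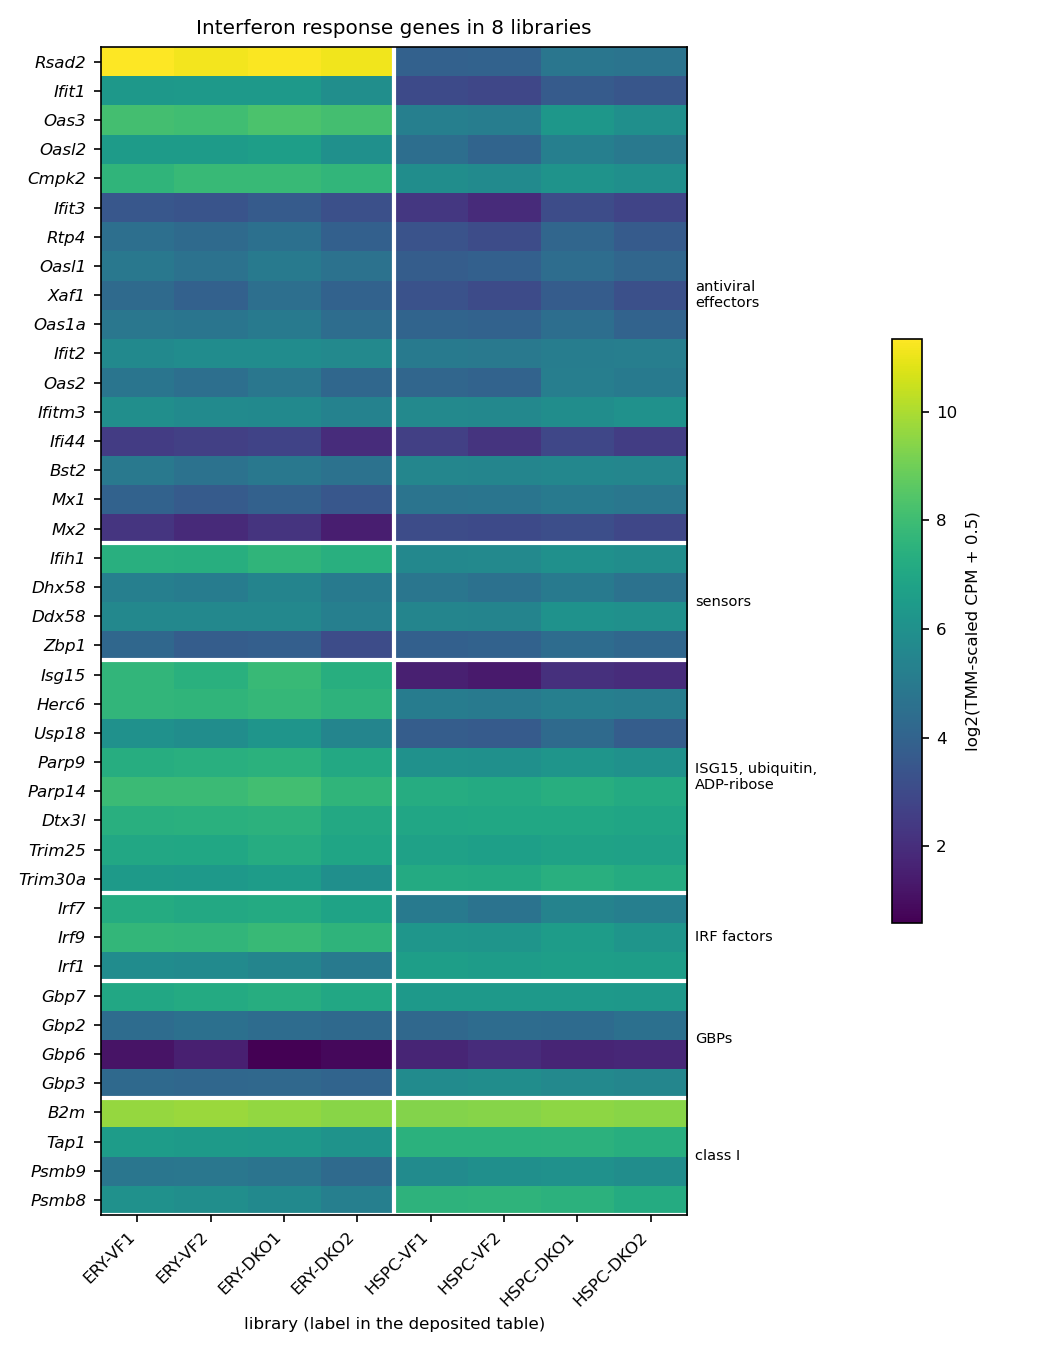
Each row is 1 of the 40 genes, grouped by role, and each column 1 of the 8 libraries, with colour showing log2(CPM + 0.5). Rsad2 and Isg15 stand far higher in the 4 erythroblast columns than in the 4 progenitor columns, while Psmb8, Tap1 and Gbp3 show the reverse.

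The largest difference of the 40 genes was that of an antiviral effector. Rsad2, which encodes viperin, an enzyme that makes a chain-terminating nucleotide against viral RNA synthesis, stood at 2601 and 2263 CPM in erythroblasts labelled Plek2+/+, and the Plek2-/- label gave 2519 and 2207 CPM. In progenitors it stood at 14.7 and 15.1 CPM under Plek2+/+ and at 27.3 and 26.1 CPM under Plek2-/-. The 4 erythroblast libraries lay far above the 4 progenitor libraries, by 165-fold under Plek2+/+ (log2 7.36 ± 0.14 SE, adjusted p 2.8e-13, edgeR) and 90.5-fold under Plek2-/- (log2 6.50 ± 0.13 SE, adjusted p 3.4e-13, edgeR). In bulk RNA, more cells that hold a transcript and more transcript per cell cannot be told apart. Corrected for exon length, Rsad2 ranked second of the 40 genes in Plek2+/+ erythroblasts, at 561 CPM per kilobase of exon (RPKM), and was number 32 in the progenitors, at 3.44 RPKM. Cmpk2, a nucleotide kinase, starts 12752 bases from Rsad2 on chromosome 12 in the opposite direction. It stood at 199.6 to 229.8 CPM in the 4 erythroblast libraries and 53.3 to 68.8 CPM in the 4 progenitor libraries, a log2 difference of 1.97 and 1.76 under the 2 labels.

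The oligoadenylate synthetases, which make the messenger that activates RNase L, were not uniform. Oas3 reached 278.6 and 265.8 CPM in Plek2+/+ erythroblasts and 316.8 and 281.2 CPM under Plek2-/-. In progenitors it stood at 36.9 and 35.5 CPM under Plek2+/+ and 77.9 and 61.1 CPM under Plek2-/-. The 4 erythroblast values lay above the 4 progenitor values, by log2 2.92 ± 0.11 and 2.14 ± 0.11 SE (adjusted p 7.8e-11 and 1.1e-09, edgeR). Oasl2, a related protein, was higher in erythroblasts by log2 2.25 and 1.27, Oasl1 by 1.0 and 0.60, and Oas1a by 0.84 and 0.53. Reads of Oas1a may be shared with its near-identical copies, so its values are uncertain. Oas2, whose gene starts 27808 bases from that of Oas3 on chromosome 5, gave log2 0.61 under Plek2+/+ (adjusted p 0.0076, edgeR) and -0.50 under Plek2-/- (adjusted p 0.019, edgeR). On library totals the calls of Oas2 under Plek2+/+ (-0.20) and of Oas1a (-0.26) and Oasl1 (-0.19) under Plek2-/- were lost, with a negative sign. Under Plek2+/+ the erythroblast and progenitor libraries of Oas1a and Oasl1 overlapped per library total.

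Of the IFIT proteins, IFIT1 binds viral RNA that lacks the host's cap methylation. Ifit1 stood at 79.6 and 81.2 CPM in Plek2+/+ erythroblasts, 84.5 and 60.1 CPM in erythroblasts labelled Plek2-/-, 7.47 and 6.91 CPM in Plek2+/+ progenitors and 12.3 and 10.6 CPM in progenitors labelled Plek2-/-. Its 4 erythroblast libraries lay above its 4 progenitor libraries, by log2 3.50 ± 0.16 and 2.69 ± 0.15 SE (adjusted p 3.2e-10 and 2.4e-09, edgeR). Ifit3, from the same cluster on chromosome 19, differed by 1.45 and 0.56, and Ifit2 by 0.81 and 0.61, of which both calls of Ifit2 and the second of Ifit3 were lost on library totals, with a negative sign. Ifit3 has a near-identical copy in the table, Ifit3b, with which it may share reads.

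Effectors of other kinds did not follow Rsad2. The GTPases Mx1 and Mx2 were lower in erythroblasts, by log2 -0.93 and -1.05 under Plek2+/+ and -1.20 and -1.25 under Plek2-/-. C57BL/6 mice carry a disrupted Mx1, so its RNA level does not report a working protein. Bst2, or tetherin, which holds budding virus on the cell surface, was lower by log2 -0.71 and -0.77. Xaf1 was higher by 0.99 and 0.85, but per library total its erythroblast and progenitor libraries overlapped under both labels. Ifi44 was called in neither comparison (0.16 and -0.33), and Rtp4 was called higher under Plek2+/+ (1.25) but had an adjusted p of 0.091 (edgeR) under Plek2-/-, at 0.40. In all, 12 of 17 effectors were called higher and 3 lower under Plek2+/+, and 10 higher and 5 lower under Plek2-/-. Of all genes tested 36.0% were higher and 37.8% lower under Plek2+/+, and 37.5% and 39.2% under Plek2-/-.

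Among the sensors, Ifih1, which encodes the long double-stranded RNA sensor MDA5, stood at 164 and 160.3 CPM in erythroblasts labelled Plek2+/+, and the Plek2-/- label gave 196 and 166 CPM. In progenitors it stood at 48.4 and 49.4 CPM and at 62.9 and 58.4 CPM. All 4 erythroblast libraries were above the progenitors, by log2 1.74 ± 0.09 and 1.61 ± 0.09 SE (adjusted p 1.4e-09 and 2.6e-09, edgeR). Dhx58, which encodes LGP2, a helper of MDA5, was higher by 0.48 and 0.43, and on library totals both calls were lost, with a negative sign. Ddx58, which encodes RIG-I, the sensor of RNA ends with a triphosphate, was not called under Plek2+/+ (0.17, adjusted p 0.17, edgeR) and was lower in erythroblasts under Plek2-/- (-0.60, adjusted p 0.00024, edgeR). Zbp1, a sensor of Z-form nucleic acids, gave 0.06 and -0.78, of which the second was called.

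**Figure D2:**
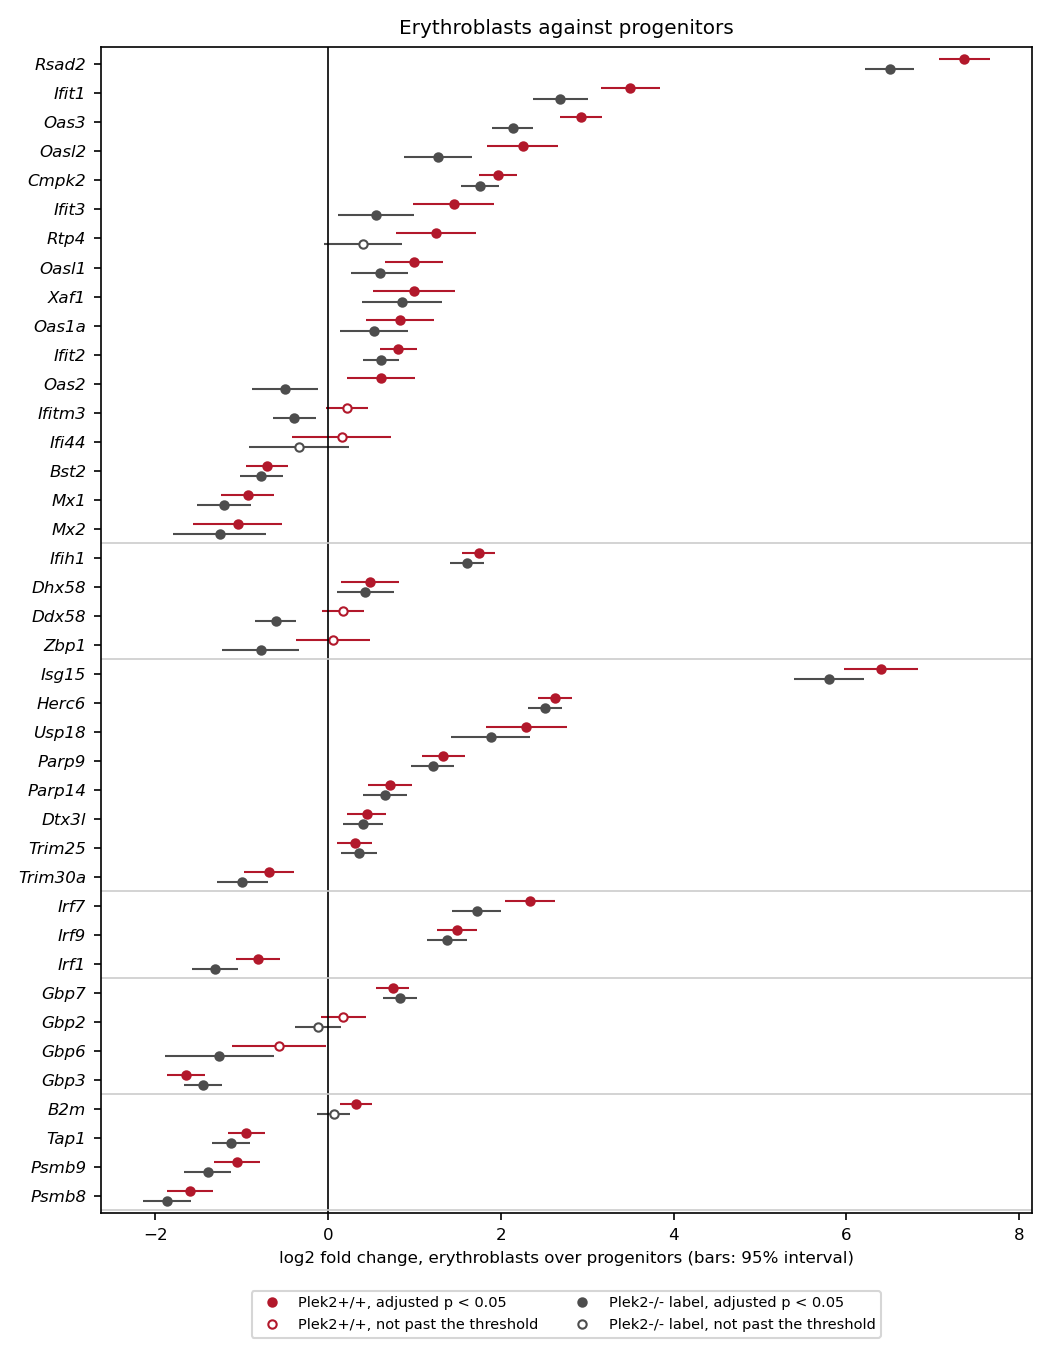
Log2 fold change of each gene in erythroblasts over progenitors with its 95% interval, in libraries labelled Plek2+/+ (red) and Plek2-/- (grey), grouped by role; filled points had an adjusted p under 0.05. Rsad2 (7.36 and 6.50) and Isg15 (6.40 and 5.80) lie far right of the other genes, and Psmb8 (-1.59 and -1.87) and Gbp3 (-1.64 and -1.44) furthest left.

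ISG15 is a small ubiquitin-like protein that is attached to other proteins by an E1, an E2 and an E3 enzyme and removed by USP18. Isg15 stood at 203.8 and 173 CPM in erythroblasts labelled Plek2+/+, at 231 and 159.99 CPM under the other label, and at 2.43, 2.11, 3.72 and 3.44 CPM in the progenitor libraries. Erythroblasts were above progenitors by 84.3-fold under Plek2+/+ (log2 6.40 ± 0.20 SE, adjusted p 9.7e-12, edgeR) and 55.7-fold under Plek2-/- (log2 5.80 ± 0.19 SE, adjusted p 1.3e-11, edgeR). Per kilobase of exon it took rank 3 of the 40 genes in erythroblasts of both labels (249 and 258 RPKM) and ranked 34 and 33 in progenitors (3.001 and 4.73 RPKM). Uba7, the E1, and Ube2l6, the E2, are not among the 40 genes but belong to the list of other induced effectors. Ube2l6 stood at 894 to 1032 CPM in the 4 erythroblast libraries and 8.38 to 12.96 CPM in the 4 progenitor libraries (log2 6.74 and 6.19, adjusted p 2.8e-13 and 3.4e-13, edgeR). Uba7 was higher by log2 2.82 and 2.79 (adjusted p 5.9e-12 and 6.0e-12, edgeR).

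Herc6, the mouse ISG15 ligase, was higher in erythroblasts by log2 2.62 ± 0.09 and 2.51 ± 0.09 SE (adjusted p 2.6e-11 and 3.7e-11, edgeR). Usp18 was higher by 2.30 and 1.89. So the gene of the modifier and those of its E1, E2, E3 and protease each stood higher in erythroblasts under both labels, and the 4 erythroblast libraries of each lay above its 4 progenitor libraries. Parp9 (1.34 and 1.22) and Dtx3l (0.45 and 0.40), which work as a pair in ADP-ribose and ubiquitin transfer, were also higher, though Dtx3l was called lower on library totals under both labels. Their genes lie head to head with overlapping exons, and as no strand setting is given for the counts, reads of the overlap cannot be assigned. Parp14, an ADP-ribosyltransferase, stood at 243 and 239.7 CPM in Plek2+/+ erythroblasts and 153 and 143 CPM in Plek2+/+ progenitors, a log2 difference of 0.72 ± 0.12 SE (adjusted p 0.00011, edgeR). Under Plek2-/- it stood at 270.6 and 199 CPM against 160.2 and 143 CPM (0.66 ± 0.12 SE, adjusted p 0.00020, edgeR). Trim25, a ubiquitin ligase of the RIG-I pathway, was higher by 0.31 and 0.36, but was called lower on library totals under both labels, where the calls of Parp14 were lost (-0.10 and -0.12). Trim30a, a TRIM protein that restrains inflammatory signalling, was the 1 gene of the 8 lower in erythroblasts (-0.68 and -0.99).

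**Figure D3:**
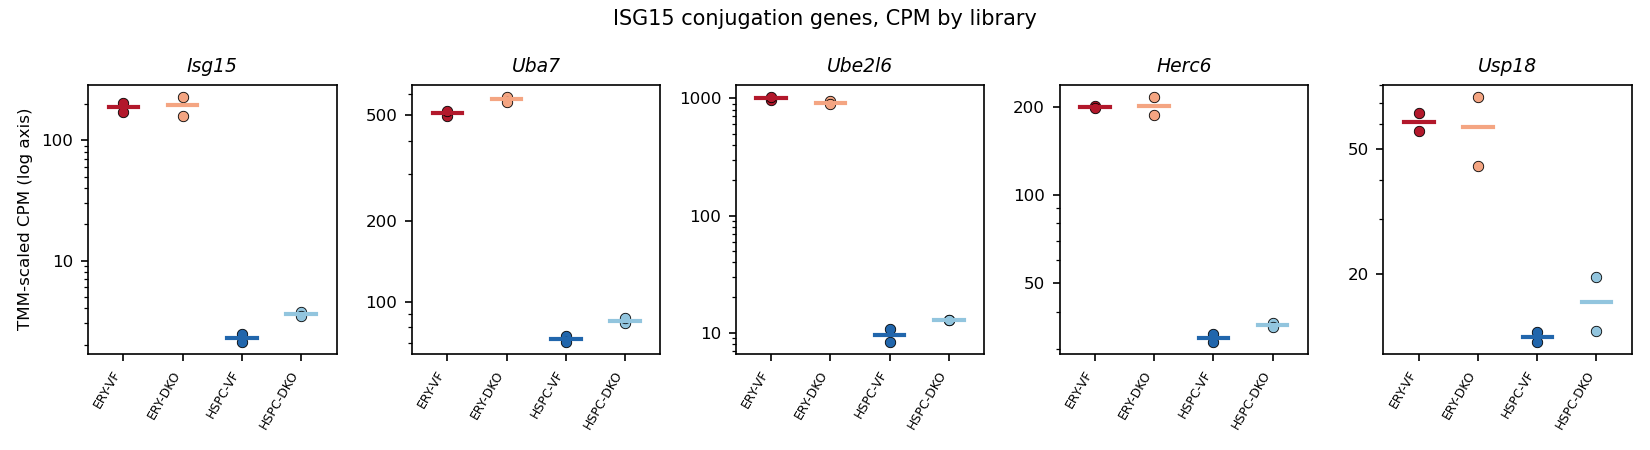
CPM (log axis, own range per panel) of Isg15 and of the genes for its E1 (Uba7), E2 (Ube2l6), E3 (Herc6) and protease (Usp18) in each library; points are libraries, bars the mean of 2, ERY erythroblasts, HSPC progenitors, VF the Plek2+/+ label and DKO the Plek2-/- label. In each panel the 4 erythroblast points lie above the 4 progenitor points.

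The interferon regulatory factors divided. Irf7, the factor that amplifies type I interferon production, stood at 148, 136, 144 and 113 CPM in the erythroblast libraries and at 31.6, 25.2, 42.3 and 37.5 CPM in the progenitor libraries. Erythroblasts were higher by log2 2.34 ± 0.13 and 1.72 ± 0.13 SE (adjusted p 4.1e-09 and 5.7e-08, edgeR). Irf9, a DNA-binding factor of the type I interferon response, was higher by 1.5 ± 0.11 and 1.38 ± 0.11 SE (adjusted p 4.4e-08 and 7.9e-08, edgeR). Its libraries gave 212, 203, 226 and 191 CPM in erythroblasts and 74.6, 73.8, 91.3 and 72.8 CPM in progenitors. Irf1, which is induced mainly by interferon-gamma and drives GAS-type and class I genes, was lower in erythroblasts by -0.81 and -1.31 (adjusted p 3.8e-05 and 4.4e-07, edgeR).

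Guanylate-binding proteins are GTPases that coat vacuoles of intracellular microbes. Gbp7 was higher in erythroblasts, at 130.5, 143, 156 and 132 CPM against 83.1, 81.5, 84.4 and 80.6 CPM (log2 0.75 ± 0.09 and 0.84 ± 0.09 SE, adjusted p 6.6e-06 and 1.9e-06, edgeR). Gbp3, which starts 29684 bases from Gbp7 on the same strand of chromosome 3, was lower, at 18.6, 17.4, 18.0 and 16.1 CPM against 55.1, 58.4, 49.3 and 45.4 CPM (-1.64 ± 0.10 and -1.44 ± 0.10 SE, adjusted p 7.4e-09 and 2.9e-08, edgeR). On the TMM scale the populations did not overlap for both genes, in opposite directions. On library totals the call of Gbp7 under Plek2+/+ was lost (-0.069), and under Plek2-/- its erythroblast and progenitor libraries overlapped. Gbp2, the next gene of the cluster, was called in neither comparison (0.18 and -0.11). Gbp6, at 1.01 to 3.41 CPM, was called lower under Plek2-/- (-1.26) and not under Plek2+/+ (-0.57, adjusted p 0.057, edgeR), and its near-identical copies make its count uncertain.

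Of the class I antigen processing genes 3 of 4 were lower in erythroblasts under both labels. Psmb8, an immunoproteasome subunit, stood at 65.0, 59.0, 50.8 and 37.7 CPM in erythroblasts and at 186, 192, 179 and 149 CPM in progenitors. It was lower in erythroblasts by log2 -1.59 ± 0.12 and -1.87 ± 0.13 SE (adjusted p 8.1e-08 and 2.0e-08, edgeR). Psmb9, another such subunit, gave -1.06 and -1.39, and Tap1, which pairs with Tap2 in the peptide transporter, gave -0.94 and -1.13, each called. Tap1 and Psmb9 start 211 bases apart in opposite directions and share 212 bases of exon. B2m, the invariant light chain, was the highest of the 40 genes per kilobase in each of the 4 groups, at 775 to 962 RPKM. Its libraries gave 805, 849, 772 and 696 CPM in erythroblasts and 658, 675, 741 and 689.9 CPM in progenitors, a log2 difference of 0.32 ± 0.09 SE under Plek2+/+ (adjusted p 0.0047, edgeR) and 0.07 ± 0.09 SE under Plek2-/- (adjusted p 0.49, edgeR). On library totals B2m under Plek2+/+ was called lower (-0.49).

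Other genes of the pathway were read from lists of 122 symbols, of which 120 were in the table and 107 were tested. In erythroblasts against progenitors 42 were higher and 43 lower under Plek2+/+, and 33 higher and 51 lower under Plek2-/-. These are 39.3% and 40.2%, and 30.8% and 47.7%, near the shares of all genes given above in the first comparison. Class I presentation was mostly lower in erythroblasts, where 37.8% and 39.2% of all genes tested were lower under the 2 labels. Of its 17 tested genes 12 were lower and 2 higher under Plek2+/+, and 13 lower and 2 higher under Plek2-/-. These included H2-Q6 (-1.95 and -2.70), Nlrc5, the transactivator of class I genes (-1.73 and -1.85), and Tap2 (-1.04 and -1.29). Of the other induced effectors 16 of 34 were higher and 7 lower under Plek2+/+, and 12 higher and 11 lower under Plek2-/-. The largest differences were those of Ube2l6 and of Isg20, an exonuclease of RNA (6.00 and 5.57). Irf8, a factor of myeloid and dendritic cell development, was lower in erythroblasts (-2.32 and -2.39). Among kinases, Jak2 was higher (1.16 and 1.03) and Tyk2 lower (-0.90 and -0.89).

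Interferon genes themselves were hardly read. The 9 type I and type III genes on the list had at most 1 read in any of the 8 libraries, and 4 of them had any read. This limits RNA in the sorted cells only and not interferon from other cells of the marrow. Ifng, the interferon-gamma gene, was at 0.135 to 0.310 CPM in erythroblast libraries, and at 1.36 to 2.24 CPM in progenitor libraries. The erythroblast values rest on 2 to 4 reads a library, so no fold change is given.

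Markers of other cells moved with the populations too. Of 14 monocyte and macrophage genes 9 were higher and 4 lower in Plek2+/+ erythroblasts and 8 higher and 5 lower in those labelled Plek2-/-, and their summed level was 1422 to 1492 CPM in these, 1232 to 1507 CPM in erythroblasts labelled Plek2-/-, and 1225 to 1437 CPM in the 4 progenitor libraries. C1qa, a complement gene of macrophages, stood at 127 to 138 CPM in erythroblasts and 2.29 to 4.07 CPM in progenitors. Mrc1 and Siglec1, also macrophage genes, were higher in erythroblasts by log2 4.89 and 4.00 under Plek2+/+ and 4.50 and 3.88 under Plek2-/-. Other genes of this monocyte and macrophage list were lower, among them Ly6c2 (-1.39 and -1.68), Ccr2 (-1.15 and -1.24) and Csf1r (-0.39 and -0.51). No gene of the list was at 0 in any library. Marrow erythroblasts are known to mature on macrophages. The part of macrophage RNA in the erythroblast levels of Rsad2, Isg15 and the other members was not tested. The 10 plasmacytoid dendritic cell markers summed to 83.8 to 119 CPM in erythroblasts and 322 to 390.5 CPM in progenitors. Neutrophil markers were higher in erythroblasts in 12 of 14 under Plek2+/+ (median 1.59) and lower in 14 of 14 under Plek2-/- (median -0.85). Of 12 B cell markers 9 and 12 were lower in erythroblasts, and of 12 T and NK cell markers 12 and 12. The part of these cells in the members' differences was not tested.

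The comparison of labels asks how the libraries labelled Plek2-/- differ within each population. In progenitors 9 of 40 members were higher in libraries labelled Plek2-/- and 0 lower (edgeR, adjusted over 13168 genes), while 4.50% of all genes tested were higher and 0.402% lower. At an unadjusted p under 0.05 the count was 18 members, and the share of all genes at that level was not counted. DESeq2 called 11 members higher and 0 lower, beside 618 and 53 of the 16993 genes it fitted. The median log2 difference was 0.22 for the members and -0.01 for all genes. The 2 libraries of each label did not overlap in 21 members higher and 2 lower, beside 20.6% and 28.5% of all genes. Of the 9 called, 7 were antiviral effectors and 2 were sensors. The 8 ISG15, ubiquitin and ADP-ribose genes, 3 regulatory factors, 4 guanylate-binding proteins and 4 class I genes gave 0 calls, although Isg15 stood at 0.69 ± 0.20 SE (adjusted p 0.11, edgeR) and Irf7 at 0.52 ± 0.12 SE (adjusted p 0.058, edgeR). The difference between role groups was not tested.

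Oas2, Oas3 and Ifit3 had the largest log2 differences of the 9. Oas2 rose from 17.0 and 15.7 CPM in Plek2+/+ progenitors to 36.4 and 30.7 CPM in those labelled Plek2-/-, by log2 1.06 ± 0.11 SE (adjusted p 0.0020, edgeR). Oas3 rose from 36.9 and 35.5 CPM to 77.9 and 61.1 CPM, by 0.97 ± 0.12 SE (adjusted p 0.0031, edgeR). Both libraries of one label lay above both of the other for each gene. Ifit3 rose from 4.53 and 3.27 CPM to 8.11 and 6.42 CPM, by 0.94 ± 0.21 SE (adjusted p 0.044, edgeR), and Ifit1 by 0.70 ± 0.14 SE (adjusted p 0.025, edgeR) from 7.47 and 6.91 CPM to 12.3 and 10.6 CPM. Rsad2 rose by 0.87 ± 0.09 SE (adjusted p 0.0019, edgeR), the lowest adjusted p of the 40, to a level still far under that of erythroblasts. Oasl2 stood at 22.02 and 16.3 CPM against 37.1 and 30.4 CPM and rose by 0.85 ± 0.16 SE (adjusted p 0.021, edgeR).

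Of the sensors, Ddx58 stood at 43.9 and 42.7 CPM under Plek2+/+ and at 67.6 and 63.9 CPM under Plek2-/-, a log2 difference of 0.63 ± 0.07 SE (adjusted p 0.0029, edgeR). Ifih1 differed by 0.33 ± 0.07 SE (adjusted p 0.040, edgeR), and Ifitm3, a membrane protein that blocks viral entry, rose from 49.5 and 48.2 CPM to 58.6 and 64.9 CPM, by 0.37 ± 0.08 SE (adjusted p 0.042, edgeR). The calls of Ifih1 and Ifitm3 were both lost on library totals (adjusted p 0.090 and 0.065), in a fit of all 8 libraries (0.10 and 0.16) and without either Plek2+/+ library (up to 0.48 and 0.51, all edgeR). Each of the 9 genes had both Plek2-/- libraries above both Plek2+/+ libraries, and the 2 replicates of a label lay closer together than the labels did. As the 9 were called on these same libraries, this follows largely from the selection. Of all genes tested 20.6% were higher without overlap. The count of 9 depended on single libraries, and so did the count over all genes. The median of the members was 0.28 without the first and 0.18 without the second Plek2+/+ library. Without the first and the second library labelled Plek2-/- it was 0.11 and 0.30. A label with 1 library left is assumed to vary like the other label. Oas2, Oas3 and Rsad2 were called with each of the 4 libraries left out in turn, while the call of Ifit1 was lost without either Plek2+/+ library and those of Ddx58, Oasl2 and Ifit3 without the second.

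Of the other pathway genes 9 of 107 tested were higher in progenitors labelled Plek2-/- and 0 lower, beside 4.50% and 0.402% of all genes tested. They included Socs3, a feedback inhibitor of cytokine receptors (log2 1.04, adjusted p 0.0015, edgeR), Ddx60, a helicase (0.97, adjusted p 0.0056), Slfn5 (0.65, adjusted p 0.0096) and Slfn2 (0.46, adjusted p 0.014). The receptor gene for type III interferons, listed under its older symbol Il28ra, was higher by 1.63 (adjusted p 0.016, edgeR), and its libraries ran from 5.07 and 7.19 CPM to 13.2 and 23.3 CPM. Class I presentation and the interferon-gamma GTPases gave 0 calls of 17 and 10 tested (1 and 2 at an unadjusted p under 0.05).

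Neutrophil genes moved in the same libraries. All 14 neutrophil markers tested, of 15 listed, were higher in progenitors labelled Plek2-/- (median log2 1.76). Their summed level was 4586 to 7528 CPM in Plek2+/+ progenitors and 19414 to 25962 CPM in those labelled Plek2-/-, and none of the 14 was at 0 in any library. In erythroblasts the sum ran the other way, 19452 to 22424 CPM under Plek2+/+ and 13514 to 14982 CPM under Plek2-/-, with 9 of the 14 lower. The part of neutrophil RNA in the progenitor differences was not tested. Of 10 plasmacytoid dendritic cell markers, cells known as strong interferon producers, 1 was higher in progenitors labelled Plek2-/- (Siglech, 0.57), and their summed level was 329 to 343 CPM and 322 to 390.5 CPM under the 2 labels.

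**Figure D4:**
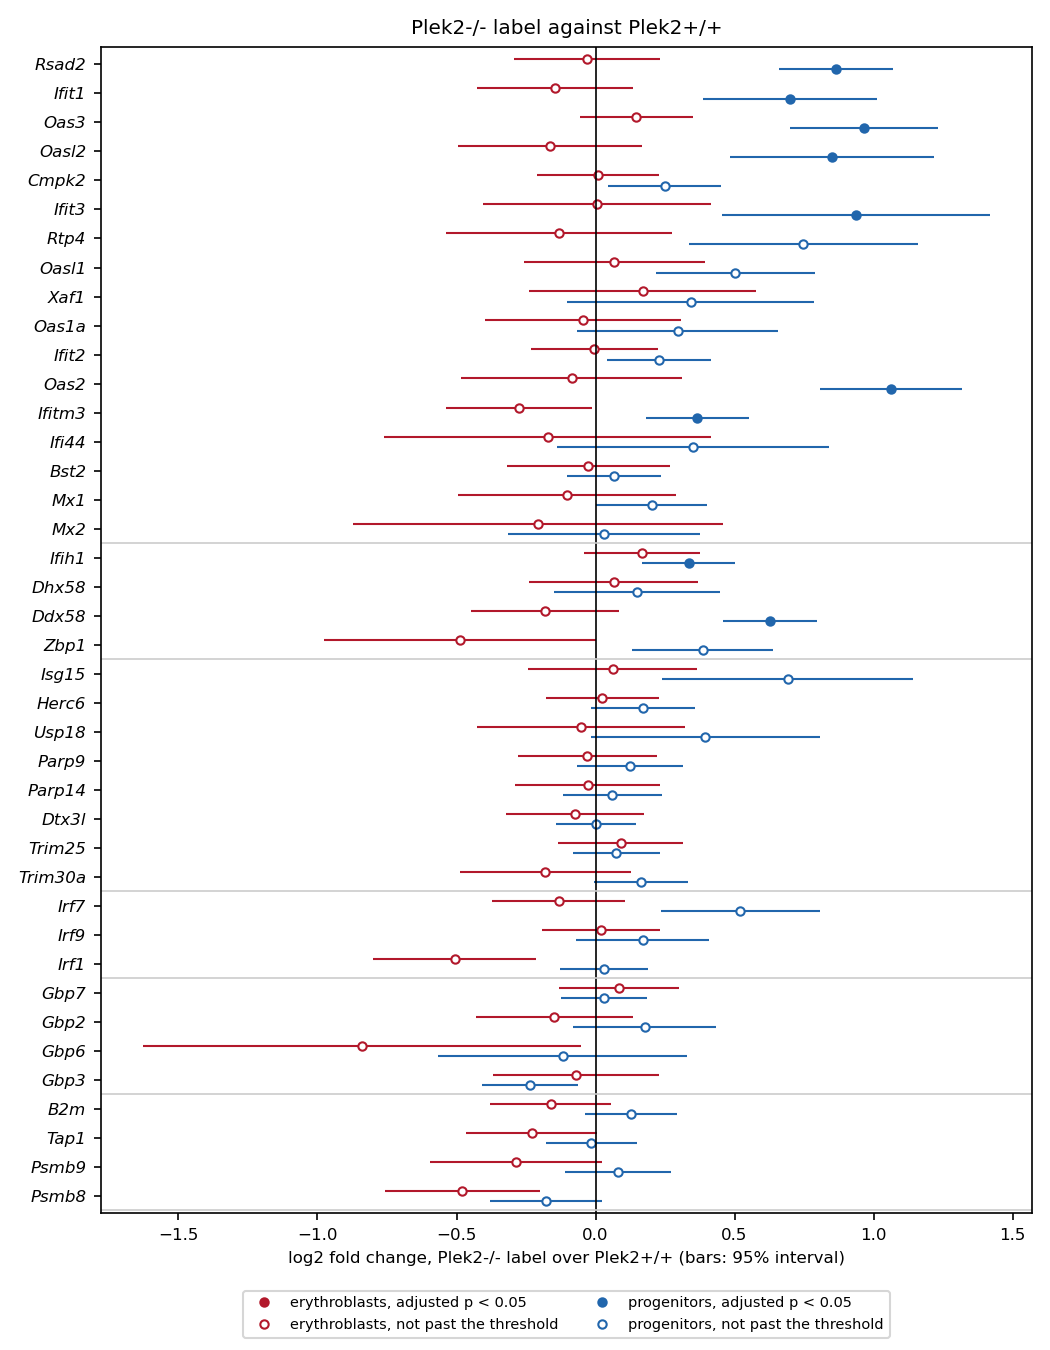
Log2 fold change of each gene in libraries labelled Plek2-/- over Plek2+/+ with its 95% interval, in erythroblasts (red) and progenitors (blue), grouped by role; filled points had an adjusted p under 0.05. The 9 filled points are all blue and on the right, from 0.33 (Ifih1) to 1.06 (Oas2).

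In erythroblasts 0 of 40 members were called in either direction between the labels (edgeR, 12241 genes), where 0.180% of all genes tested were higher and 2.66% lower. At an unadjusted p under 0.05 there were 4 members, Irf1, Psmb8, Gbp6 and Ifitm3, with the share of all genes not counted. DESeq2 also called 0 members, beside 27 higher and 310 lower of the 16426 genes it fitted. The median difference was -0.07 for the members and 0.01 for all genes. The libraries did not overlap in 2 members higher and 8 lower, beside 21.1% and 24.2% of all genes. The lowest adjusted p was that of Irf1, at 55.6 and 52.9 CPM under Plek2+/+ and 44.3 and 31.7 CPM under Plek2-/- (log2 -0.51 ± 0.13 SE, adjusted p 0.067, edgeR). Psmb8 followed at -0.48 ± 0.13 SE (adjusted p 0.070, edgeR). For Rsad2 the difference was -0.03, with a 95% interval from -0.29 to 0.23, and for Oas3 0.15, from -0.06 to 0.35.

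The 2 erythroblast libraries labelled Plek2-/- were unlike each other in these genes. The first lay above the second in 39 of 40 members, with a median log2 gap of 0.40, while 54.9% of all genes tested were higher in the first and the median gap over all was 0.03. The widest gap was in Ifi44 (0.79). In the other groups the first library was the higher in 29 members (Plek2+/+ erythroblasts, 51.9% of all genes), 28 (Plek2+/+ progenitors, 37.8%) and 36 (progenitors labelled Plek2-/-, 49.4%). Without that first erythroblast library the median of the members was -0.28, and without the second it was 0.11, in place of -0.07. The median over all genes was -0.0035 and -0.0031 in these fits. In each, 1 library labelled Plek2-/- stands against 2 and its spread is taken from the Plek2+/+ pair. The values therefore describe that library and not the label. Of the other pathway genes 6 of 105 tested were lower in erythroblasts labelled Plek2-/- and 0 higher, beside 2.66% and 0.180% of all genes tested. The 6 were Ifitm1 (-0.93), Irf5 (-0.69), Ifitm2 and Stat3 (each -0.46), Ptpn1 (-0.45) and Ptpn6 (-0.37).

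Whether the label difference itself differed between the populations was tested in 1 fit of the 8 libraries, which are those of the comparisons above. Sex goes with the label, so this was not a test of Plek2 alone. For 7 members the label difference in erythroblasts was lower than that in progenitors and for 0 higher (edgeR, adjusted over 13365 genes). Over all genes tested the shares were 5.32% and 0.232%. At an unadjusted p under 0.05 there were 12 members, with the share of all genes not counted. DESeq2 called 8 members lower and 0 higher, beside 747 and 28 of the 17527 genes it fitted. The median was -0.30 for the members and 0.04 for all genes. Rsad2 gave -0.86 ± 0.16 SE (adjusted p 0.0046), Oas3 -0.79 ± 0.15 SE (adjusted p 0.0067) and Ddx58 -0.78 ± 0.16 SE (adjusted p 0.0091, all edgeR). Oas2 gave -1.11 ± 0.25 SE (adjusted p 0.019), Ifit1 -0.81 ± 0.21 SE (adjusted p 0.041), Ifitm3 -0.61 ± 0.16 SE (adjusted p 0.043) and Oasl2 -0.98 ± 0.26 SE (adjusted p 0.046, all edgeR). Ifit3, called in progenitors, gave -0.90 ± 0.30 SE (adjusted p 0.11, edgeR) and Ifih1 -0.13 ± 0.12 SE (adjusted p 0.61, edgeR). The count of 7 moved with single libraries left out, as did the count over all genes. The median of the members was -0.29 without the second Plek2+/+ progenitor library and -0.36 without the first Plek2+/+ erythroblast library. Without the first and the second erythroblast library labelled Plek2-/- it was -0.59 and -0.17, beside -0.02 and -0.03 for all genes. Oas3 and Rsad2 were called with each of the 8 libraries left out in turn. Of the neutrophil markers 14 of 14 were lower in this test (median -2.33).

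**Figure D5:**
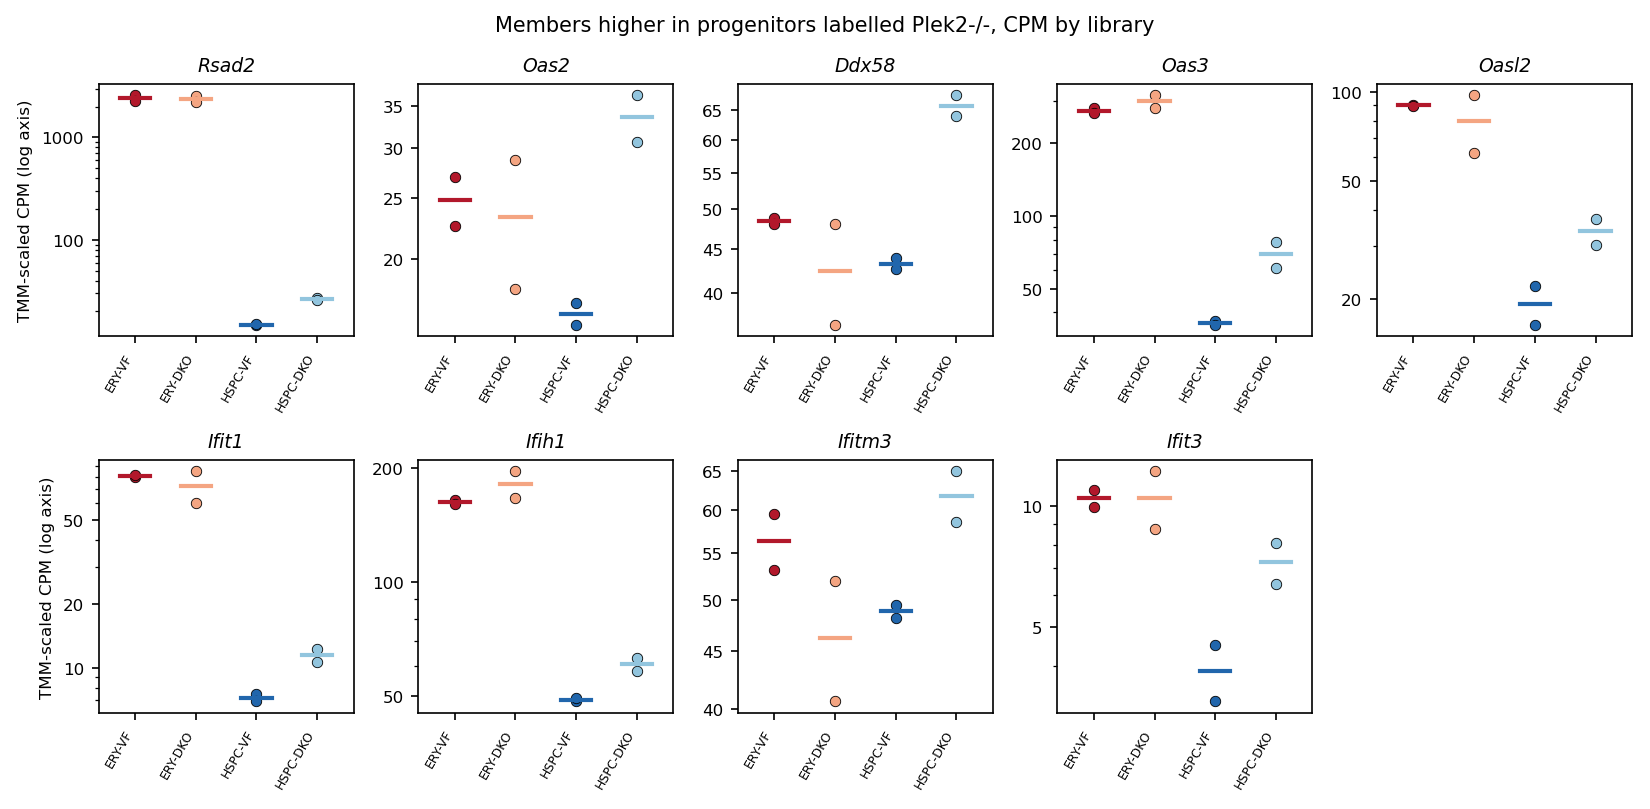
CPM (log axis, own range per panel) in each library for the 9 genes higher in progenitors labelled Plek2-/-; points are libraries, bars the mean of 2, ERY erythroblasts, HSPC progenitors, VF the Plek2+/+ label and DKO the Plek2-/- label. In each panel both HSPC-DKO points lie above both HSPC-VF points, which follows largely from choosing genes called on these libraries. On this TMM scale Rsad2, Oas3, Oasl2, Ifit1, Ifih1 and Ifit3 are higher still in erythroblasts. Per library total Ifit3 is not, and the populations overlap for Oasl2 under the Plek2-/- label.

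Set side by side, the 9 genes held 2 patterns of level. Rsad2, Oas3, Oasl2, Ifit1, Ifit3 and Ifih1 had their highest values in erythroblasts of both labels, and the Plek2-/- progenitors lay between these and the Plek2+/+ progenitors. For Ifit3 this holds only on the TMM scale: per library total it stood at 9.37 and 6.70 reads per 1000000 in erythroblasts labelled Plek2-/- and 10.6 and 8.25 in progenitors of that label. Per library total Oasl2 overlapped too: its second erythroblast library labelled Plek2-/- lay just under the first progenitor library of that label. Oas2, Ddx58 and Ifitm3 had their highest values in progenitors labelled Plek2-/-, where each of both libraries was above the 4 erythroblast libraries except that Ifitm3 in 1 of them (58.6 CPM) lay under the first Plek2+/+ erythroblast library (59.5 CPM). The summed level of the 17 effectors was 3202 to 3553 CPM in Plek2+/+ erythroblasts, 3046 to 3559 CPM in those labelled Plek2-/-, 353 to 376 CPM in Plek2+/+ progenitors and 468 to 529 CPM in progenitors labelled Plek2-/-. Rsad2 made up 70.7% to 73.2% of the sum in erythroblasts and 3.92% to 5.58% in progenitors, and without it the sums were 939 to 952, 838 to 1040.4, 338 to 361 and 441 to 502 CPM in the same order. The sums of the 4 class I genes were 991 to 1023, 820.4 to 934, 1074 to 1103 and 1057 to 1163 CPM in the same order, of which B2m made up 61.2% to 84.8%. As shares of all reads these sums were 0.0627% to 0.0769% in erythroblasts and 0.136% to 0.152% in progenitors. On the TMM scale the effector sum, with and without Rsad2, separated the populations and, within progenitors, the labels, whereas the class I sums of the 2 progenitor groups overlapped. Per library total and without Rsad2 the populations overlapped. There the effector sum of the second erythroblast library labelled Plek2-/- lay under that of the first progenitor library of that label.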

How the data were processed

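The values are read counts per gene, deposited by the authors as 1 table for 8 libraries. Per the submitters' processing notes, the build was mm10 and the tools included HTSeq 0.6.1pl, STAR 2.5.2a, DESeq2 1.14.1 and cutadapt 1.13. Not given in the sources used here are the role of each tool, the annotation and the strand setting. A second deposited table, of normalized values, was not used.

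Members were taken by symbol. Members and lists were chosen with earlier results of these data known. Genes with low counts were dropped by filterByExpr, counts were scaled by TMM, and the quasi-likelihood test of edgeR 4.0.16 (R 4.3.3, limma 3.58.1) was used, with Benjamini-Hochberg adjustment over 12241 genes in erythroblasts, 13168 in progenitors and 13365 in the fit of all libraries, and a threshold of 0.05. Coefficients of biological variation were 8.12%, 7.17% and 7.62%. CPM are reads per 1000000 of the library total multiplied by the TMM factor, and RPKM are these per kilobase of exon. DESeq2 1.42.0, other scaling, no filter, a replicate block and each library left out were alternatives. The fits were checked on simulated data. With 2 libraries against 2, an exact two-sided permutation test of a single value cannot give a p under 0.333.

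The rule for values in full took members called in a genotype comparison or the interaction and, per role group, the member of highest mean CPM and that of the largest population difference; pathway lists gave the up to 3 called genes of lowest adjusted p per list and comparison, of which some are printed. Other pathway genes and the cell markers named were chosen after their values were seen. Reads carry no molecule tags, so limits cover counting error only. Gene positions came from GENCODE vM21 (GRCm38).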

Additional observations from a re-analysis of the deposited data

Results flagged for a closer look

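For 7 genes the difference between the Plek2 labels was unlike in the 2 populations by the interaction test (edgeR, adjusted p under 0.05). Sex and the Plek2 label cannot be told apart in it. The log2 label difference in erythroblasts minus that in progenitors was -1.11 for Oas2, -0.98 for Oasl2, -0.86 for Rsad2 and -0.81 for Ifit1. It was -0.79 for Oas3, -0.78 for Ddx58 and -0.61 for Ifitm3. Neutrophil markers differed in the same direction (median -2.33, 14 of 14 lower), and their part in these differences was not tested.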

How the results depend on the processing

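Counts of members moved by over 1.5 times as follows. Between labels in erythroblasts, 0 members were lower, against 2 without a filter on low counts, 2 with a replicate block, 1 in a fit of all 8 libraries and 0 to 10 with single libraries left out. In progenitors 9 were higher, against 15 without a filter and 3 to 23 with single libraries left out, and 0 to 2 were lower in those fits. In the interaction 7 were lower, against 4 on library totals, 13 without a filter and 2 to 17 with single libraries left out. On library totals 13 members were higher and 18 lower in erythroblasts under Plek2+/+, and 12 were higher and 19 lower under Plek2-/-, and of all calls 18.7% and 20.5% were higher in place of 48.8% and 48.9%. The split of all progenitor calls was 91.8% higher, 79.8% on library totals, 81.7% without a filter, and 64.9% and 59.3% without the first and the second library labelled Plek2-/-. Of the single-gene values 1106 kept direction and side of the threshold, 55 lost the threshold and 16 reversed, each of the 16 on library totals. Under Plek2+/+ these were Oas2 (-0.20), Ifit2 (-0.00382), Dhx58 (-0.33), Trim25 (-0.51), Parp14 (-0.10), Dtx3l (-0.37), Gbp7 (-0.069) and B2m (-0.49). Under Plek2-/- they were Oas1a (-0.26), Oasl1 (-0.19), Ifit2 (-0.17), Ifit3 (-0.23), Dhx58 (-0.35), Trim25 (-0.43), Parp14 (-0.12) and Dtx3l (-0.38). The progenitor calls of Ifih1 and Ifitm3 were lost on library totals and in the fit of all 8 libraries. The labels do not pair libraries by number (correlation of deviations -0.091 to 0.130). With the replicate block 12 members were higher in progenitors and 10 lower in the interaction, beside 720 of 13168 and 802 of 13365 genes. The cause of these changes was not tested. With 2 libraries a group and at 13 to 100 reads, Gbp6 is the member that depth limits most.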
